A study of Mus musculus with 6 samples.

Results

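Phox2a, Hand1, Hand2, Gata2, Gata3, Isl1, Tbx2 and Insm1 are transcription factors of the sympathoadrenal lineage, from which neuroblastoma arises. They were found by symbol in a table of gene counts from the mouse neuroblastoma line Neuro2a, and all 8 of 8 symbols were present, each in 1 row, among 24391 genes listed. Poly(A) RNA was sequenced in 3 libraries of the control group, whose label is vehicle and which had no D-serine, and in 3 libraries of the D-serine group, which had 5 mM D-serine. Cells of both groups had grown in D-MEM and then spent 18 h in the medium named D-MEM(-SG) in the labels, with 10% FBS throughout. What the vehicle and the letters SG stand for, and whether the replicates were separate cultures, is not given in the sources used here, so the p-values measure the spread between these libraries, which may be technical. Neuro2a is 1 established line, and its genes have no normal sympathetic tissue beside them in these data.

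In the embryo, neural crest cells that settle beside the dorsal aorta become sympathetic neurons and chromaffin cells of the adrenal medulla. The homeodomain protein Phox2a takes part in switching on the noradrenergic programme together with the basic helix-loop-helix factor Hand2 and the zinc finger proteins Gata2 and Gata3. Isl1, a LIM homeodomain protein, acts in the survival and differentiation of sympathetic neurons, Tbx2 is a T-box repressor, and Insm1 is a zinc finger repressor of neuroendocrine cells. In human neuroblastoma several of these factors bind one another's enhancers and form the core circuit of the adrenergic tumour state, as opposed to a mesenchymal state.

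Several members have a close relative, and reads from an abundant gene could in principle be counted for a rare one. The coding sequences of mouse transcripts in GENCODE M21 were therefore compared without gaps, and the 120 bases in which each pair was most alike were found. Hand2 and Hand1 come first, as the members with the highest and the lowest level. They were identical at 109 of 120 bases, from coding base 338 of Hand2 and coding base 323 of Hand1, counted from the start codon. Capitals mark the bases that differ.
Hand2: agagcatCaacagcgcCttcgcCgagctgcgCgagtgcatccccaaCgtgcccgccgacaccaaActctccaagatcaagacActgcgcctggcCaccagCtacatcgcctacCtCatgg
Hand1: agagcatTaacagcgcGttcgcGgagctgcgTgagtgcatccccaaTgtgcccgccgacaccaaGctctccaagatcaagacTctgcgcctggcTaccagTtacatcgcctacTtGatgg
The longest run without a difference between the whole transcripts of Hand2 and Hand1 was 17 bases. Tbx2 is shown beside its relative Tbx3, because Tbx2 was the member past the threshold of the comparison below. Tbx2 from coding base 284 and Tbx3 from coding base 278 were identical at 100 of 120 bases, and their longest shared run was 14 bases.
Tbx2: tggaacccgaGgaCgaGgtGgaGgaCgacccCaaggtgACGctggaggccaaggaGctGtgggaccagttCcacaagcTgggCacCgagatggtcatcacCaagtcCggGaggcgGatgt
Tbx3: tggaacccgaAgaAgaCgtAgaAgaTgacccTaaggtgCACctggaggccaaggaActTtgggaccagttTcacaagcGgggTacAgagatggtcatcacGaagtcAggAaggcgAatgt
Gata2 from coding base 905 and Gata3 from coding base 809 were identical at 102 of 120 bases, with a longest shared run of 17 bases. They are printed as the pair of relatives that were both well expressed.
Gata2: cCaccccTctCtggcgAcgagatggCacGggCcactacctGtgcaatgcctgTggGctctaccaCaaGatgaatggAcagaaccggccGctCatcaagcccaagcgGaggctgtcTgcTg
Gata3: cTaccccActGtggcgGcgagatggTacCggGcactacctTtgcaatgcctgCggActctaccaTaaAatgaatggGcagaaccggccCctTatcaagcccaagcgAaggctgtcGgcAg
Isl1 and Isl2 had a longest shared run of 23 bases, and Insm1 and Insm2 one of 24 bases. How reads that map to several places were treated is not given in the sources used here.

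Library totals ranged from 32518483 to 40024265 counts. D-serine replicate 1 stood apart within its group, with a chi-square statistic per degree of freedom of 17.7 and 13.9 against its fellows, where the other pairs of libraries within a group gave 3.88 to 6.54. The label of neuroblastoma was set against 16 neuronal and neuroblastoma markers, of which 14 reached 1 TPM (a level per exon length, scaled to the same sum in each library) in the control mean. The exceptions were the neurofilament genes Nefl and Nefm. Of the markers of other cell types, 2 fibroblast, 1 Schwann cell or glia, 1 blood cell and 0 epithelial genes reached 1 TPM. The highest were Erbb3 of the Schwann cell list, at 11.2 TPM, and Pdgfrb of the fibroblast list, at 9.58 TPM. Both lay above Th and Dbh of the neuronal list, at 2.02 and 1.59 TPM in the control mean. The neuronal list summed to 3211 to 3453 TPM over the 6 libraries. Sums of the other lists were low, at 8.29 to 12.9 TPM for 9 fibroblast genes and 10.95 to 13.9 TPM for 8 Schwann cell and glia genes. They were 0.878 to 2.83 TPM for 8 blood cell genes and 0.479 to 1.33 TPM for 6 epithelial genes. Col3a1, Lum and Thy1 of the fibroblast list and Foxd3 and Cdh19 of the Schwann cell list had 0 counts in all 6 libraries, which allows up to 0.0135 CPM each (3 counts over the 6 libraries together, counting error only). In the blood list 5 genes had 0 counts, but Hbb-bs and Hba-a1 among them share 630 and 1112 exonic bases with Hbb-b1 and Hba-a2 on the same strand, so that their 0 sets no such limit.

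Which of the factors are expressed in Neuro2a was read from their levels in the control libraries. Of the 8 members, 7 had a control mean of 19.6 TPM or more and 1, Hand1, was below 1 TPM in every library. The lowest of the 7, Isl1, ranked 7241 among all 24391 genes, of which 6756 had no count in any library. Of all 24391 genes, 12204 had a control mean of 1 TPM or more. Among the genes tested for a response below, Isl1 lay above 45.8% and Gata3 above 49.9% in control level, so neither reached the middle. Hand2 was the most abundant and alone made up 41.7% of the summed level of the members, which was 616 TPM. In the control libraries no pair of neighbours in the order Hand2, Gata2, Phox2a, Insm1, Tbx2, Gata3, Isl1, Hand1 overlapped, and each library had this order. With D-serine the order of the means was the same, and only the libraries of Gata3 and Isl1 overlapped. These are levels per exon length of the deposited table, so errors in the gene models move them.

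**Figure D1:**
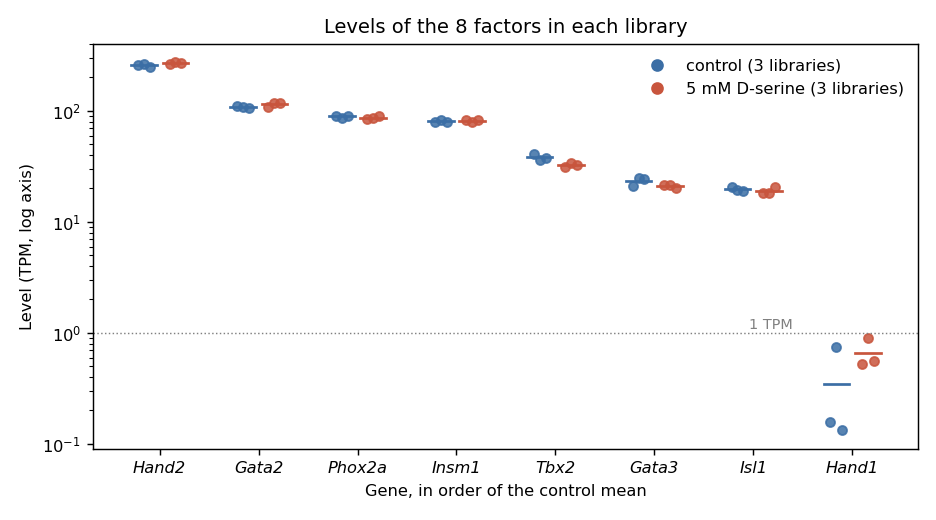
Level of each factor in TPM on a log axis, in the order of the control mean, with 1 point per library (blue, 3 control; red, 3 D-serine) and a line at the mean. Hand2 lies highest, between 249.7 and 273.5 TPM, and Hand1 is the factor with every library below 1 TPM.

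Hand2 (chromosome 8, 59799780 to 59803314, plus strand, 2 exons) is a basic helix-loop-helix factor needed for noradrenergic differentiation of sympathetic neurons. Its level was 256.9, 263.7 and 249.7 TPM in control replicates 1 to 3 and 265.4, 273.5 and 268.2 TPM in D-serine replicates 1 to 3. In control it ranked 630 among all 24391 genes. Hand1 (chromosome 11, 57642215 to 57645649, minus strand, 2 exons), the paralog better known from trophoblast and heart, had 4, 22 and 4 counts in control replicates 1 to 3 and 17, 26 and 18 counts in D-serine replicates 1 to 3. That is 0.157, 0.743 and 0.132 TPM in control and 0.520, 0.894 and 0.556 TPM with D-serine. The level of Hand2 was between 305.8 and 1888 times that of Hand1 in the same library. Hand1 therefore lay at the bottom of the set by a factor of 57.0 below the next gene, Isl1, in the control means.

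Gata2 (chromosome 6, 88148658 to 88157026, plus strand, 6 exons) and Gata3 (chromosome 2, 9778705 to 9800227, minus strand, 6 exons) bind the same short motif and act in sympathetic neurons as well as in blood. Gata2 was at 109.8, 109.2 and 105.3 TPM in control replicates 1 to 3, and Gata3 was at 21.1, 24.6 and 24.1 TPM. Gata2 was thus 4.36 to 5.21 times as high as Gata3 in the control libraries, and 5.08 to 5.74 times as high in the D-serine libraries. The ratios overlapped between the groups.

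Phox2a (chromosome 7, 108966827 to 108971240, plus strand, 3 exons) was at 89.8, 87.1 and 90.6 TPM in control replicates 1 to 3. It shares 95 exonic bases with Inppl1 on the opposite strand, and although the library kit keeps strand, whether the counting used it is not given in the sources used here. Isl1 (chromosome 13, 117088478 to 117099896, minus strand, 6 exons) was at 20.5, 19.4 and 18.9 TPM in control, and its relative Isl2 at 11.4 ± 1.18 TPM (SD, n = 3).

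Insm1 (chromosome 2, 146047733 to 146050754, plus strand, 1 exon), a repressor of neuroendocrine and neuronal precursors, was at 79.0, 82.9 and 79.2 TPM in control replicates 1 to 3. Tbx2 (chromosome 11, 85646117 to 85655450, plus strand, 7 exons), a T-box repressor that restrains senescence genes, was at 40.5, 36.4 and 37.3 TPM in control. Its close relative Tbx3 was nearly silent, at 0.599 ± 0.175 TPM (SD, n = 3). The 7 factors other than Hand1 had at least 695 counts in every library, and the coefficients of variation of their scaled counts within a group lay between 0.987% and 9.30%.

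The other members of the programme were described from a list of 32 factors. Of these 22 reached 1 TPM in control, beside 12204 of all 24391 genes. Sox4, a SOX family factor of immature neurons, was at 335 ± 5.09 TPM and Mycn, the MYC family gene amplified in aggressive human neuroblastoma, at 129 ± 1.70 TPM (SD, n = 3 each). Tfap2a and Klf13 had 0 counts in all 6 libraries, and Tfap2a shares 380 exonic bases with Gm26688 on the opposite strand.

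Of 29 genes of catecholamine synthesis and noradrenergic neurons, 21 reached 1 TPM in control, beside 12204 of all 24391 genes. The highest were Prph, the intermediate filament peripherin, at 1119 ± 14.7 TPM, Gap43, a growth cone protein, at 310.5 ± 17.6 TPM and Gch1, which makes the cofactor of tyrosine hydroxylase, at 244 ± 2.88 TPM (SD, n = 3 each). Enzymes that define the transmitter were low, Th (tyrosine hydroxylase) at 2.02 ± 0.61 TPM and Dbh (dopamine beta-hydroxylase) at 1.59 ± 0.38 TPM, both chosen after their values were seen. Slc6a2, the noradrenaline transporter, Maoa, which breaks down monoamines, Pnmt, which makes adrenaline, and Penk, an opioid peptide precursor, had 0 counts in all 6 libraries. Of 6 cholinergic genes, 2 reached 1 TPM and 4 did not, and the highest was Ache, acetylcholinesterase, at 28.0 ± 0.32 TPM. Chat, Slc18a3 and Slc5a7, chosen after their values were seen, had 7, 2 and 0 counts over the 6 libraries together.

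The mesenchymal state of neuroblastoma was represented by 24 genes. Of these 13 reached 1 TPM in control and 11 did not, beside 12204 of all 24391 genes that did. The intermediate filament gene Vim was the highest at 1203 ± 14.8 TPM in control (SD, n = 3). Fn1 (fibronectin) was at 76.3 ± 1.06 TPM and Maff at 51.7 ± 3.63 TPM, while Twist1, Twist2, Tbx18, Meox2 and Tcf21 had 0 counts in all 6 libraries. Prrx1, Yap1, Cd44 and Runx1, chosen after their values were seen, had 6, 2, 6 and 29 counts over the 6 libraries together. Of 29 binding partners and cofactors, 27 reached 1 TPM. The histone deacetylase Hdac2 was at 392 ± 1.95 TPM, Id3, which blocks E-proteins from pairing with factors such as Hand2, at 366 ± 18.2 TPM and Kdm1a, a histone demethylase, at 220 ± 5.33 TPM (SD, n = 3 each).

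A promoter sequence in the RefSeq table (GRCm38.p6, 1 or more starts a gene) was found for 5 of the 8 members. Shown are the 250 bases before the start of Hand2 and of Isl1, the highest and the lowest in level of the 5, 5′ to 3′. Capitals mark 3 short motifs searched on both strands, CANNTG (the E-box read by Hand2 and its partners), GATAA (read by Gata factors) and TAAT (the core read by homeodomain factors), and neighbouring matches can overlap. Hand2 (chr8:57320733-57320982, plus strand) held 2 CANNTG, 2 GATAA and 5 TAAT matches.
Hand2 promoter: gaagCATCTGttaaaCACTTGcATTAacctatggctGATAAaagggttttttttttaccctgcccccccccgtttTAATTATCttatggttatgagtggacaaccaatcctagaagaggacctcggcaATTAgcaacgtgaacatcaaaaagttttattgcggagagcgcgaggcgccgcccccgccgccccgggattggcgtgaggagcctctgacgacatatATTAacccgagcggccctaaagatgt
Isl1 (chr13:116309689-116309938, minus strand) held 1 CANNTG, 1 GATAA and 2 TAAT matches.
Isl1 promoter: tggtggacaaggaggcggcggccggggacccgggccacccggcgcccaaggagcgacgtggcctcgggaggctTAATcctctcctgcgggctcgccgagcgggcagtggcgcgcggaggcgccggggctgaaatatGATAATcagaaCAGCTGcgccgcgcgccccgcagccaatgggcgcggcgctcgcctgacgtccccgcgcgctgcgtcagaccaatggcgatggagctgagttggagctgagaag
Among all 32851 promoter windows of this length, 66.2% held CANNTG, 22.6% held GATAA and 54.9% held TAAT. The window of Phox2a held 1 GATAA and neither of the others, and those of Gata2 (2 starts) and Gata3 held none of the 3. A match describes letters and not a bound site.

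The response to D-serine was then tested gene by gene, with all 13366 genes that passed a filter on low counts in the fit. All 8 members passed it. Hand1 passed it through the D-serine libraries, had at most 26 counts in a library and is reported with that limit. Of the 8, 1 was past the threshold (adjusted p under 0.05, edgeR quasi-likelihood test), the decrease of Tbx2. That is 12.5% of the members, beside 9.74% of all genes tested, so the share lay near the background. For decreases alone the background was 4.90%, and for increases, of which the members had 0, it was 4.84%. The other 7 did not pass the test, and for all of them but Gata2 the 95% interval of the log2 fold change included 0. The median log2 fold change of the 8 was 0.0083, beside 0.0053 over all genes tested. At an unadjusted p under 0.05 there were 2 members, Tbx2 and Gata2. At least 9.74% of all genes tested had such p-values, because those past the threshold did, but the full share is not given here. This count therefore cannot set the members apart from the background.

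Values below are in CPM, counts scaled to a common library size with the trimmed mean of M values (TMM). Tbx2 was at 60.0, 54.5 and 56.9 CPM in control replicates 1 to 3 and at 49.3, 50.8 and 49.3 CPM in D-serine replicates 1 to 3. Every D-serine library lay below every control library. The decrease was 12.9%, a log2 fold change of -0.20 (SE 0.053, 95% interval -0.31 to -0.084, edgeR adjusted p = 0.0349). In bulk RNA, fewer cells of a type and less RNA per cell cannot be told apart. The decrease was smaller in size than the change of 78.1% of the genes past the threshold. The call was lost when any of 4 libraries was left out, where the adjusted p was 0.148, 0.0751 and 0.0886 for control replicates 1, 2 and 3 and 0.106 for D-serine replicate 3. It was also lost with upper quartile scaling (adjusted p = 0.0596), with library totals (0.0595) and with replicate number as a block (0.0869). The log2 fold change stayed between -0.23 and -0.16 in all 16 alternatives. Without D-serine replicate 1, the library that stood apart, it was -0.19 (adjusted p = 0.0278).

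Its relative Tbx3, chosen after its values were seen, was at 1.61, 1.02 and 1.02 CPM in control and 0.433, 0.762 and 0.546 CPM with D-serine. The libraries of Tbx3 did not overlap, but it was not past the threshold (-1.06 on the log2 scale, SE 0.34, edgeR adjusted p = 0.0663), and it passed in 3 of 15 alternatives.

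Gata2 was at 148.1, 149.0 and 146.2 CPM in control replicates 1 to 3 and at 155.4, 158.8 and 160.8 CPM in D-serine replicates 1 to 3. The groups did not overlap in CPM, but on the TPM scale D-serine replicate 1 (109.1 TPM) lay within the control range. The log2 fold change was 0.10 (SE 0.041, 95% interval 0.011 to 0.19) and the edgeR adjusted p was 0.132, above the threshold. Hand2 was at 238.8, 247.9 and 238.9 CPM in control and at 260.6, 254.7 and 253.8 CPM with D-serine, again without overlap. Its log2 fold change was 0.084 (SE 0.040, 95% interval -0.0033 to 0.17, edgeR adjusted p = 0.192). Together with Tbx2, 3 of 8 members (37.5%) had groups without overlap, beside 32.9% of all genes tested (16.2% higher and 16.6% lower). In none of the 16 alternatives did Gata2 or Hand2 pass the threshold, where the smallest adjusted p-values were 0.0513 and 0.0923.

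**Figure D2:**
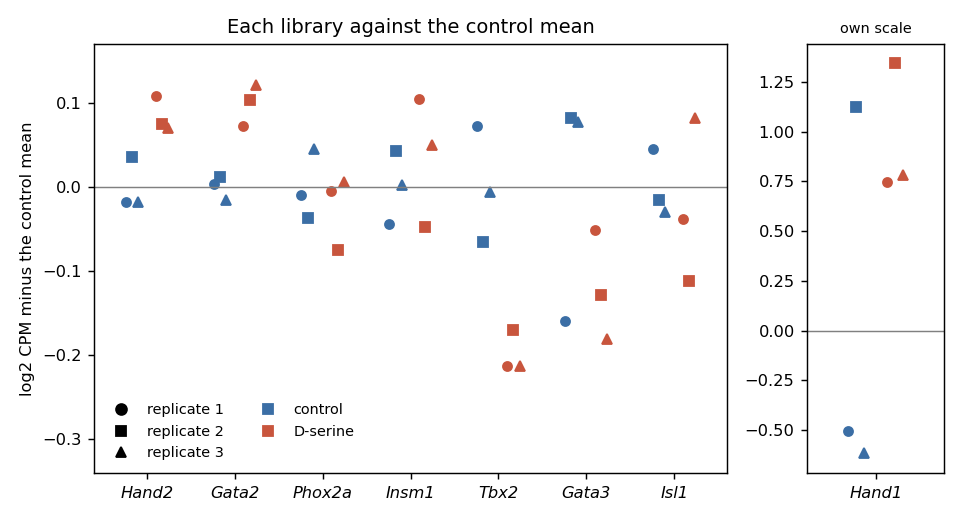
Difference of each library from the control mean of the gene, in log2 CPM, for 7 factors and, on its own scale, for Hand1 (blue, control; red, D-serine; symbols give the replicate number). The D-serine libraries of Tbx2 lie between -0.21 and -0.17, below all control libraries, and those of Gata2 and Hand2 lie above theirs.

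Gata3, the less abundant Gata factor, was at 28.2, 33.3 and 33.2 CPM in control and at 30.4, 28.8 and 27.8 CPM with D-serine. Control replicate 1 lay among the D-serine libraries, and the log2 fold change of -0.13 (SE 0.074, 95% interval -0.28 to 0.034) was not past the threshold (edgeR adjusted p = 0.289). Without control replicate 1 it was -0.20 (adjusted p = 0.143), and without control replicate 2 it was -0.084 (adjusted p = 0.608). The log2 fold changes of Gata3 and Gata2 had opposite signs, and the difference between them was not tested.

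Phox2a was at 60.1, 59.0 and 62.4 CPM in control and at 60.3, 57.4 and 60.7 CPM with D-serine, with a log2 fold change of -0.025 (SE 0.050, 95% interval -0.13 to 0.084, edgeR adjusted p = 0.792). Its sign was positive with upper quartile scaling and with library totals. Isl1 was at 21.5, 20.6 and 20.4 CPM in control and at 20.3, 19.3 and 22.1 CPM with D-serine, so that the D-serine libraries lay on both sides of the control range (log2 fold change -0.020, SE 0.073, 95% interval -0.18 to 0.14, adjusted p = 0.892). The sign of Isl1 was positive under the same scalings.

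Insm1 was at 99.3, 105.4 and 102.5 CPM in control and at 110.0, 99.1 and 106.0 CPM with D-serine (log2 fold change 0.037, SE 0.050, 95% interval -0.072 to 0.15, edgeR adjusted p = 0.673). D-serine replicate 2 lay below all control libraries of Insm1 and the other D-serine libraries above them. The log2 fold change was 0.0018 without D-serine replicate 1, 0.077 without D-serine replicate 2, 0.016 without control replicate 1 and 0.059 without control replicate 2, and 0.067 with upper quartile scaling. For Phox2a, Insm1 and Isl1 the intervals bound a change in either direction at 0.18 on the log2 scale.

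Hand1 was at 0.124, 0.593 and 0.108 CPM in control and at 0.433, 0.707 and 0.447 CPM with D-serine. Control replicate 2 lay between the D-serine libraries, and the log2 fold change of 0.91 (SE 0.57, 95% interval -0.33 to 2.14) was not past the threshold (edgeR adjusted p = 0.323). The value depended on control replicate 2, without which it was 2.16 (adjusted p = 0.0888). It was 0.59 without control replicate 1 and 0.51 without control replicate 3.

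**Figure D3:**
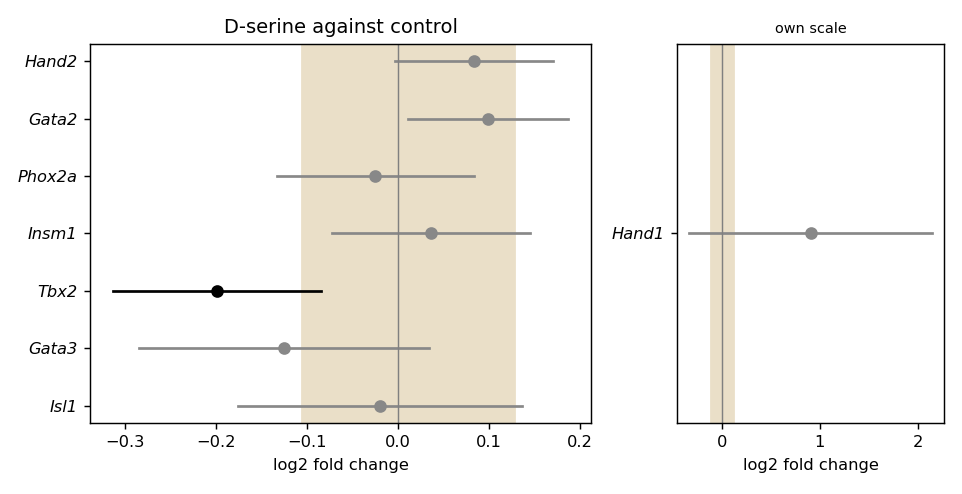
Log2 fold change of each factor, D-serine against control, as a point with its 95% interval from the edgeR fit (black, adjusted p under 0.05; grey, not), with Hand1 on its own scale. The band spans the quartiles of all genes tested, -0.11 to 0.13. Tbx2 at -0.20 and Gata3 at -0.13 lie below it, and Tbx2 alone of the 8 passed the threshold in this fit.

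The other 32 factors of the programme were read from the same fit. Of 26 that were tested, 6 were past the threshold, 1 higher and 5 lower, which is 23.1% beside 9.74% of all genes. Their median log2 fold change was -0.033, beside 0.0053 for all genes tested. Pbx3, a TALE homeodomain cofactor, fell from 92.1, 87.9 and 89.6 CPM in control to 74.6, 76.2 and 74.1 CPM with D-serine (log2 fold change -0.26, SE 0.046, edgeR adjusted p = 0.00913). Stat3, the cytokine signal transducer, fell by 0.23 on the log2 scale (SE 0.046, adjusted p = 0.0133), and the homeobox gene Six4 by 0.21 (SE 0.049, adjusted p = 0.0233). Hey1, a Notch target chosen after its values were seen, fell by 0.26 (SE 0.063, adjusted p = 0.0262).

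Zfhx3, a large zinc finger homeobox gene, fell from 183.9, 172.7 and 166.0 CPM to 103.6, 146.8 and 142.7 CPM (log2 fold change -0.41, SE 0.098, edgeR adjusted p = 0.0240). D-serine replicate 1 was the lowest by far, and without it the log2 fold change was -0.27 (adjusted p = 0.000546). With DESeq2 the decrease was not past the threshold (adjusted p = 0.0624). Mycn was the 1 that rose, from 140.7, 142.0 and 141.3 CPM to 159.5, 150.0 and 160.7 CPM (0.15 on the log2 scale, SE 0.044, edgeR adjusted p = 0.0475). The call for Mycn was lost with DESeq2 size factors (adjusted p = 0.0510). Sox4 was not past the threshold (log2 fold change 0.10, adjusted p = 0.184), but without D-serine replicate 1 it was (0.15, adjusted p = 0.00385).

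Among 27 tested partners and cofactors, 4 were past the threshold, 2 higher and 2 lower (14.8%, beside 9.74% of all genes). The log2 fold changes of this list had a median of -0.033. The inhibitors of E-protein dimers Id1 and Id2 rose. Id1 went from 76.6, 72.8 and 77.8 CPM to 96.8, 84.0 and 86.8 CPM (0.24 on the log2 scale, SE 0.058, edgeR adjusted p = 0.0259). Id2 went from 26.6, 25.7 and 25.8 CPM to 34.2, 29.2 and 31.6 CPM (0.28, SE 0.069, adjusted p = 0.0253). Id3, the most abundant of them, had a log2 fold change of 0.17 (SE 0.053, adjusted p = 0.0601), not past the threshold, but passed with DESeq2 (adjusted p = 0.0473), upper quartile scaling (0.0389), library totals (0.0359), no filter on low counts (0.0253) and without D-serine replicate 2 (0.0495). With the length trend removed it was 0.083. The histone demethylase Kdm1a (-0.14, SE 0.039, adjusted p = 0.0476) and its corepressor Rcor1 (-0.20, SE 0.057, adjusted p = 0.0410), which Insm1 recruits, fell. Both calls were lost with upper quartile scaling (0.113 and 0.0570 in that order, adjusted p) and with library totals (0.104 and 0.0628), and that of Kdm1a also with no filter on low counts (0.0512).

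Of 22 tested genes of catecholamine synthesis and noradrenergic neurons, 1 was past the threshold (4.55%, beside 9.74% of all genes). The median log2 fold change of the 22 was 0.048. The gene past the threshold was Scg2, which encodes a granule protein and rose from 223.5, 234.8 and 246.6 CPM to 283.9, 271.7 and 270.1 CPM (log2 fold change 0.23, SE 0.046, edgeR adjusted p = 0.0142). Th, chosen after its values were seen, was at 1.33, 1.995 and 1.16 CPM in control and 2.96, 2.04 and 2.31 CPM with D-serine. Its groups did not overlap, but it was not past the threshold (log2 fold change 0.70, SE 0.25, adjusted p = 0.0899), except with no filter on low counts (0.0397). Dbh, also chosen after its values were seen, had a log2 fold change of 0.052 (SE 0.26, adjusted p = 0.923). In the cholinergic list 0 of 3 tested genes, and in the mesenchymal list 0 of 14, were past the threshold in the edgeR fit, and 0 in both with DESeq2 and with limma-voom. At an unadjusted p under 0.05 there were 0 and 1, the latter Sox9, which was chosen after its values were seen. At least 9.74% of all genes tested had such p-values, because those past the threshold did. Neither 0 of 3 nor 1 of 14 stood above that share. The medians of these lists were -0.17 and -0.0004.

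**Figure D4:**
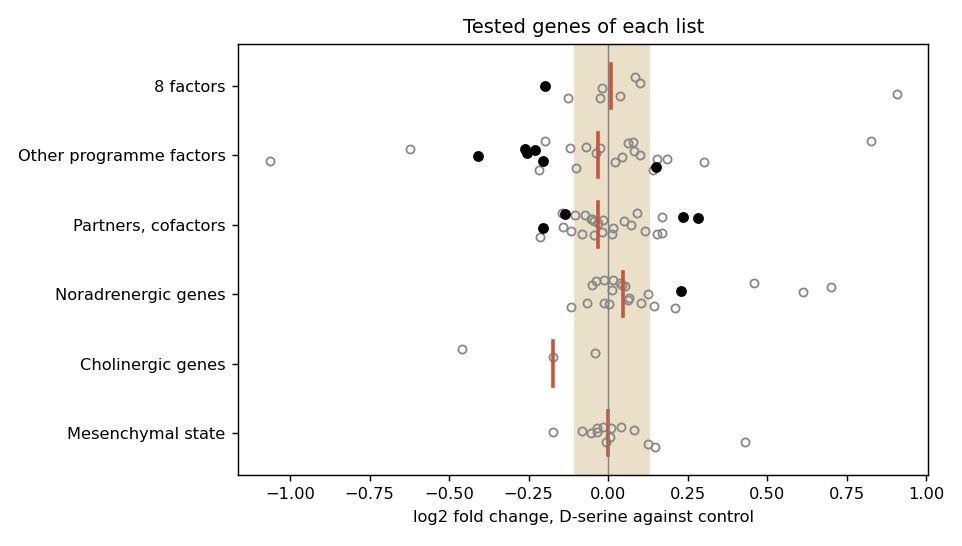
Log2 fold change, D-serine against control, of each tested gene in the 6 lists (filled, adjusted p under 0.05 in edgeR; open, not; red line, median of the list; band, quartiles of all genes tested). The filled points number 1 of 8 for the factors described here and 6 of 26 for the other factors of the programme.

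All 11 of these named genes past the threshold kept their sign when 1 library was left out, but their calls depended on it. Leaving out control replicate 1 ended 11 of 11 calls (adjusted p from 0.0536 to 0.173), and leaving out control replicate 2 also ended 11 of 11 (from 0.0501 to 0.150). When control replicate 3 was left out, 4 of 11 remained past the threshold (Pbx3, Scg2, Six4 and Stat3). When D-serine replicate 3 was left out, 4 of 11 remained (Pbx3, Scg2, Stat3 and Zfhx3). The adjusted p-values of the lost calls reached 0.115 and 0.160. Kdm1a was lost when D-serine replicate 2 was left out (adjusted p = 0.0675), and 0 of 11 calls were lost when D-serine replicate 1 was. With replicate number as a block in the fit, the calls of Pbx3 (edgeR adjusted p = 0.0449) and Stat3 (0.0475) remained. The others of the 11 were lost, with adjusted p-values from 0.0544 to 0.124. Over all genes 647 were higher and 655 lower, but upper quartile scaling gave 914 higher and 412 lower and library totals gave 944 and 412. Among the markers of other cell types, the fibroblast marker Pdgfrb was lower with D-serine (log2 fold change -0.37, adjusted p = 0.0370), and of the neuronal markers Tubb3 was higher (0.25, adjusted p = 0.0148). The summed fibroblast list ran from 11.2 to 12.9 TPM in control and from 8.29 to 11.4 TPM with D-serine, and its part in the results was not tested. Pdgfrb made up most of that sum, at 9.58 ± 0.81 TPM in control and 7.37 ± 1.14 TPM with D-serine (SD, n = 3 each). Next came Pdgfra, at 1.75 and 1.70 TPM.

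The gene whose profile over the 6 libraries was most like that of each member was found by the root mean square difference of log2 CPM, each gene centred on its own mean. For Tbx2 it was Flii (difference 0.016 on the log2 scale, where the profile of Tbx2 itself had a root mean square of 0.11). For Hand2 it was Ilk (0.010, against 0.047), for Gata2 Parp3 (0.011, against 0.052), for Gata3 Plp2 (0.024, against 0.11), for Phox2a Xpnpep1 (0.013, against 0.037), for Isl1 Crk (0.018, against 0.062) and for Insm1 Abhd16a (0.011, against 0.054). The nearest gene to Hand1, Carf, was no close match (0.50, against 0.76). These are the best of 9801 or more genes over 6 libraries and are a description only.

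**Figure D5:**
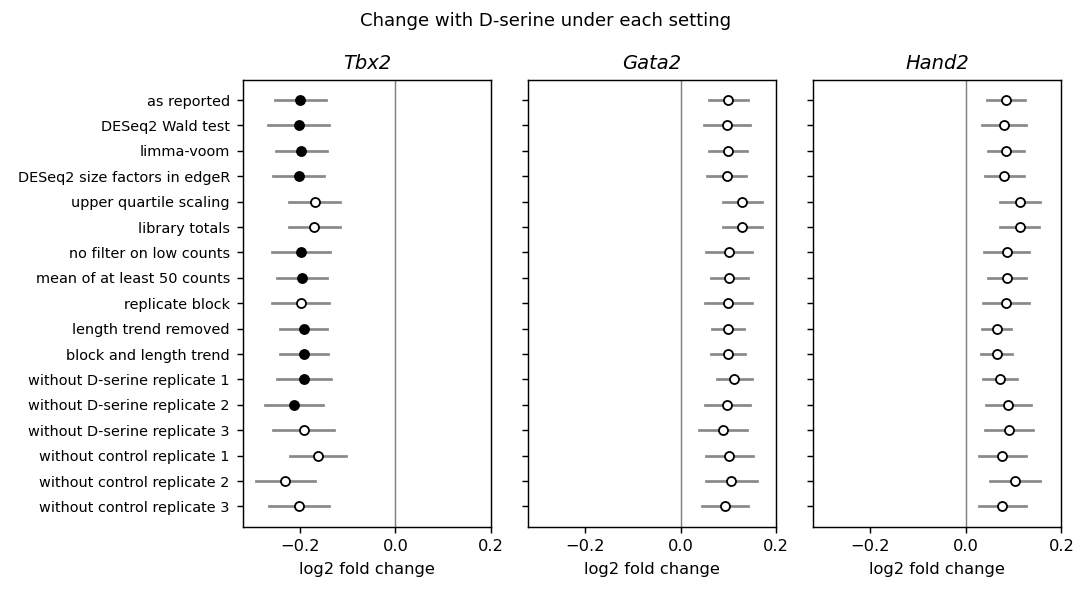
Log2 fold change of Tbx2, Gata2 and Hand2 as reported and in 16 alternatives, with 1 standard error on each side (filled, adjusted p under 0.05; open, not). The points of Tbx2 lie between -0.23 and -0.16 and 9 of its 16 alternatives are filled, while Gata2 and Hand2 stay above 0 with no filled point.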

How the data were processed

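Gene counts of 6 Neuro2a libraries were analysed. Per the file headers, the authors deposited raw counts per gene in the layout of featureCounts, with gene positions and summed exon length, which is not a measured value. HISAT2, featureCounts (Subread), Trim Galore, bcl2fastq and DESeq2 are named, with GRCm38 and mm10, in the submitters' processing notes. Options are not given in the sources used here. The deposited start positions equal those of RefSeq GRCm38.p6 in 314 of 23175 symbols and 0 of the 8 members, so positions are printed as deposited, 1-based, and promoters separately in GRCm38.p6.

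Columns named vehicle were taken as the control samples of the same number. edgeR 4.0.16 in R 4.3.3 was used with filterByExpr, TMM scaling, the quasi-likelihood F test without covariate and Benjamini-Hochberg adjustment over 13366 genes, two-sided, threshold 0.05. The standard error is the log2 fold change divided by the square root of F, and the 95% interval uses its t quantile. TPM was computed from counts and exon length. The tests were tested on simulated data. Other settings tried were limma-voom (limma 3.58.1), the Wald test of DESeq2 1.42.0, other scalings and filters, a replicate block, removal of each library's trend on gene length (spline with 5 degrees of freedom, centred so that scaling stayed the same), and leaving out each library. Named genes beyond the members are those of each list past the threshold (4 at most, by p) and the 3 highest in control TPM, and not all are reported here. Genes outside this rule are named as chosen after their values were seen, or are relatives of a member, markers, or genes of a list at 0 counts. The members and lists were chosen with earlier results of these data known.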

Additional observations from a re-analysis of the deposited data

How the results depend on the processing

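Of the 8 members, 7 passed the level threshold in control, as they did with 0.5 TPM or 5 TPM in place of 1 TPM, with FPKM, and with each control library left out. The number of members past the threshold was 0 with upper quartile scaling and 0 with library totals, and from 0 to 1 when 1 library was left out. Genes past the threshold numbered 1302 as reported, 2043 with the length trend removed, and from 68 (without control replicate 2) to 1699 (without D-serine replicate 1) when 1 library was left out. Leaving out control replicate 1 gave 125, control replicate 3 gave 453 and D-serine replicate 3 gave 291. The cause was not tested. Each of these fits uses 1 spread per gene for both groups, also with 3 libraries in each.

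No pairing by replicate number was seen. Deviations of same-numbered libraries from their group means correlated at -0.0687, 0.0197 and -0.0187, and 1 of 6 libraries correlated best with its own number. With 3 libraries in a group, whose deviations are not independent, the check cannot decide whether the numbers pair the libraries. With a replicate block 298 genes and 0 members were past the threshold, and Tbx2 was at -0.20 (edgeR adjusted p = 0.0869).

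Signs reversed as follows. With upper quartile scaling the log2 fold change was 0.0053 for Phox2a and 0.0099 for Isl1, and with library totals 0.0047 and 0.0092. Without D-serine replicate 2 it was 0.0005 for Phox2a, 0.0236 for Isl1 and -0.0683 for Dbh. Without control replicate 1 it was 0.0035 for Isl1 and -0.0715 for Dbh, and without control replicate 3 -0.0114 for Dbh. With 1 library left out, the values ran from -0.0422 to 0.0005 for Phox2a, from -0.0747 to 0.0236 for Isl1 and from -0.0715 to 0.2652 for Dbh. With the length trend removed Zfhx3 was at -0.23 and Id1 at 0.15, each over 1.5 times closer to 0 than reported, and Phox2a at -0.0764, farther from 0. Hand1 had only 4 to 26 counts in a library, which limits its estimate, and neither it nor Tbx3 had a value with a filter on a mean of 50 counts.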
